A study of Homo sapiens with 6 samples.

Results

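The clustered histone genes are described here as total RNA recorded them in the CD24low and CD24high cells of one human breast line. They are the protein-coding genes whose GENCODE 29 symbols begin with HIST1H, HIST2H, HIST3H or HIST4H. The annotation holds 71 of them, and all 71 were found among the 58381 gene IDs of the deposited table by Ensembl ID without version. A mean of at least 10 normalized counts over the 6 libraries was required for testing. It was met by 62 histone genes and missed by 9. HIST2H4B had the same reads as HIST2H4A in every library, so 61 genes were counted. By class the 71 comprised 6 genes for the linker histone H1, 17 for H2A, 18 for H2B, 15 for H3 and 15 for H4.

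The cells were MCF10AT1, a breast epithelial line derived from MCF10A that carries activated HRAS. A fluorescence-activated sort with antibodies to the surface proteins CD24 and CD44 separated a CD24low/CD44high fraction, called CSC in the submitters' column descriptions, and a CD24high/CD44+ fraction, called Bulk. Each fraction had 3 libraries, both came from the same line in the same medium, and no treatment other than the antibodies was labelled. The RNA was total RNA depleted of ribosomal RNA (rRNA), copied with random hexamers into strand-specific libraries. The labels do not say whether the replicates were separate cultures or sorts. The p-values thus speak for the variation among these 6 libraries, part or all of which may be technical.

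Clustered histone genes supply the histones that package newly made DNA, and they are transcribed mainly in S phase. Most have no intron. Their mRNAs usually end in a short stem-loop instead of a poly(A) tail. The stem-loop is bound by SLBP, and the end is cut by a complex that includes the U7 small nuclear RNA with LSM10 and LSM11. NPAT, a target of cyclin E and CDK2, coordinates their transcription at nuclear sites called histone locus bodies. Methods that select poly(A) RNA lose most of these mRNAs, while rRNA-depleted total RNA keeps them. Some members also make polyadenylated transcripts, chiefly in cells that have stopped dividing.

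The members lie in 4 groups on hg38. HIST1 on chromosome 6 (chr6:25726132-27893843) holds 55 of them, of which 47 were tested. HIST2 on chromosome 1 (chr1:143905556-149887916) holds 12, all of which were tested. Of these HIST2H3PS2 lies apart at the low end, and the next gene, HIST2H2BF, begins at chr1:149782689. HIST3 (chr1:228424845-228460470) holds 3 with 2 tested, and HIST4 (chr12:14767999-14771131) holds HIST4H4 alone.

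The stem-loop that replaces the poly(A) tail is shown because it is the feature that sets these mRNAs apart from most others in total RNA. GENCODE 29 transcripts of 36 member genes have a 3′ untranslated region of 30 bases or more. A histone stem-loop lay within 120 bases after the stop codon in 32 of them. A further 35 genes have models that end at the stop codon, so that nothing could be searched. The 32 genes shared 6 different stem-loops of this pattern. Below, 1 gene stands for each, read 5′ to 3′ on the coding strand from the hg38 transcripts, with the stem-loop in capitals.
HIST1H2BG (chr6:26216213-26216238, minus strand): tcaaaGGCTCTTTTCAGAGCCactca
HIST1H4J (chr6:27824454-27824479, plus strand): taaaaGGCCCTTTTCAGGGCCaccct
HIST1H2BC (chr6:26123467-26123492, minus strand): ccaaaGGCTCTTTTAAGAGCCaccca
HIST2H4A (chr1:149833027-149833052, plus strand): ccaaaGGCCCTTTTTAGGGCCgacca
HIST1H3E (chr6:26225591-26225616, plus strand): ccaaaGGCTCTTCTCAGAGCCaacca
HIST1H2AG (chr6:27133510-27133535, plus strand): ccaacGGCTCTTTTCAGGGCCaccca
The form shown for HIST1H2BG was the most frequent, with 17 genes of the H2A, H2B and H3 classes. The HIST1H4J form occurred in 5 genes, all of the H4 class, and the HIST2H4A form in 3, also all H4. The HIST1H2BC form occurred in 5 genes of the H2B and H3 classes. The last 2 forms belonged to HIST1H3E and HIST1H2AG alone.

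Promoter windows from RefSeq (GRCh38.p14), running from 250 bases before to 50 bases after the start of transcription, matched 61 of the 71 members by synonym. HIST1H3D and HIST1H2AD share a single window. ATTTGCAT, the octamer bound by OCT1 (POU2F1), was searched on both strands together with CCAAT and TATAAA. None of these motifs contains another. The octamer was present in 9 of 13 H2B windows, 11 of 16 H2A windows and 1 of 13 H3 windows. It was absent from all 6 H1 and all 13 H4 windows, and present in 1.80% of all 27305 promoter windows. CCAAT was found in every H1, H2A, H2B and H3 window but in only 3 of 13 H4 windows, against 35.7% of all promoters. TATAAA was found in 41 of the 61 windows, against 12.0% of all promoters. A match describes the letters only and is not evidence of binding.

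The 150 bases before the start are shown for 3 highly expressed genes whose windows differ in these motifs. Capitals mark matches on either strand.
HIST1H2BK (chr6:27146859-27147008, minus strand): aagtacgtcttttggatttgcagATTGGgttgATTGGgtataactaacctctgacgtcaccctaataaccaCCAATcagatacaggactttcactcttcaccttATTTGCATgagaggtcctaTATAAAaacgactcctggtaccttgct
HIST1H1C (chr6:26056471-26056620, minus strand): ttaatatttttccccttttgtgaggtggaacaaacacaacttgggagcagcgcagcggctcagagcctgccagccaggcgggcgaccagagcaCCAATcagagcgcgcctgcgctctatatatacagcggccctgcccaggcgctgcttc
HIST1H4J (chr6:27823942-27824091, plus strand): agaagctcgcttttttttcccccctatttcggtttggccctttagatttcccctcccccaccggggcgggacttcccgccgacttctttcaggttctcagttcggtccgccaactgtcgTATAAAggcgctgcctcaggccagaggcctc
The HIST1H2BK window holds all 3 motifs and lies between this gene and the H2A gene HIST1H2AH on the opposite strand. The HIST1H1C stretch holds CCAAT alone, and the HIST1H4J stretch TATAAA alone.

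Before the histone values, the libraries need a brief description. Recovered reads came to 24421025 to 26988295 per CD24low library and 16691162 to 27293177 per CD24high library. The share of reads on rRNA genes was 7.15%, 7.07% and 1.97% in CD24low replicates 1, 2 and 3, and 1.30%, 2.27% and 10.2% in CD24high replicates 1, 2 and 3. Both fractions therefore had libraries with a low and a high rRNA share. CD24 itself had 588, 329 and 1370.3 normalized counts in the CD24low libraries, against 4043, 2325 and 5687 in the CD24high libraries, without overlap, and the sort used this protein. CD44 had 8294, 7479 and 6866 normalized counts in the CD24low libraries, against 8553, 7878 and 8993 in the CD24high libraries, and the ranges overlapped. The first principal component of all genes tested took 50.0% of the variance and placed CD24low replicate 2 farthest out, at 55.0, against 22.9 and 3.83 for CD24low replicates 1 and 3 and −34.2 to −15.9 for CD24high. Every library result below is given in the order of replicates 1, 2 and 3, and the main histone results are also given without CD24low replicate 2 or 3.

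Histone mRNA was abundant in both fractions. Summed over the 61 genes, it made up 0.936, 0.673 and 1.03% of all reads in the CD24low libraries, against 0.910, 0.866 and 0.720% in the CD24high libraries. Within these, HIST2H2AA3 and HIST2H2AA4, and HIST2H3C and HIST2H3A, had nearly the same reads, which may be counted at both copies. With each of these pairs counted once, the share was 0.865, 0.622 and 0.950% in the CD24low libraries, against 0.843, 0.801 and 0.669% in the CD24high libraries. HIST1H3J and HIST1H2AM, and HIST1H4J and HIST1H4K, also had close reads and were still counted separately. In normalized counts the sum over the 61 genes was 222753, 161817 and 245252 in CD24low and 206004, 201402 and 175712 in CD24high. The means were 209941 ± 43168 in CD24low and 194373 ± 16323 in CD24high (SD, n = 3 each), a ratio of 1.08. The CD24low libraries held both the highest and the lowest sum of the 6, so the ranges overlapped. In bulk RNA, fewer cells in S phase and less histone mRNA per cell cannot be told apart. Without CD24low replicate 2 the ratio was 1.20, and without CD24low replicate 3 it was 0.99.

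No member passed a test of the difference between the fractions. limma gave 0 of 61 members an adjusted p under 0.05, in a test that called 0% of all 16047 genes. At an unadjusted p under 0.05 it again gave 0 members, against 13.5% of all genes. edgeR's quasi-likelihood test gave 0 by adjusted p (0% of all genes) and 0 by unadjusted p (14.1%). DESeq2 gave 0 by adjusted p (2.51%) and 2 by unadjusted p (13%), HIST2H3PS2 and HIST2H3D. HIST2H3D is named here after its values were seen. The sequences before the starts of these genes are nearly the same, and whether they share reads was not tested. In none of the 61 members did the 3 CD24low values and the 3 CD24high values separate, whereas they did in 19.5% of all genes. Without CD24low replicate 2, limma gave 21 members an unadjusted p under 0.05, all with higher CD24low values (3.73% of all genes in that direction), and 0 an adjusted p under 0.05.

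The size of the differences was bounded in limma's fit. Log2 differences, taken as CD24low minus CD24high on log2 (normalized count + 1), ran from −0.09 for HIST1H2BB to 0.40 for HIST2H3PS2. Every one of the 61 limma 95% intervals included 0, and every one lay within a 2-fold change in either direction. The upper bound passed 1.5-fold for 8 members, and no lower bound passed 1.5-fold. These intervals draw on the spread of all genes. Within CD24low the members had a median SD of 0.32, beside 0.13 for genes of like level. Intervals from the members' own spread could thus be wider. No member had a log2 difference beyond 0.5 in size, against 13.4% of all genes. The median was 0.08, a ratio of 1.06, beside −0.01 over all genes. The difference was above 0 in 52 of 61 members, against 49% of all genes. Without CD24low replicate 2 the median was 0.27, and without CD24low replicate 3 it was −0.05, so its sign rested on that library.

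**Figure D1:**
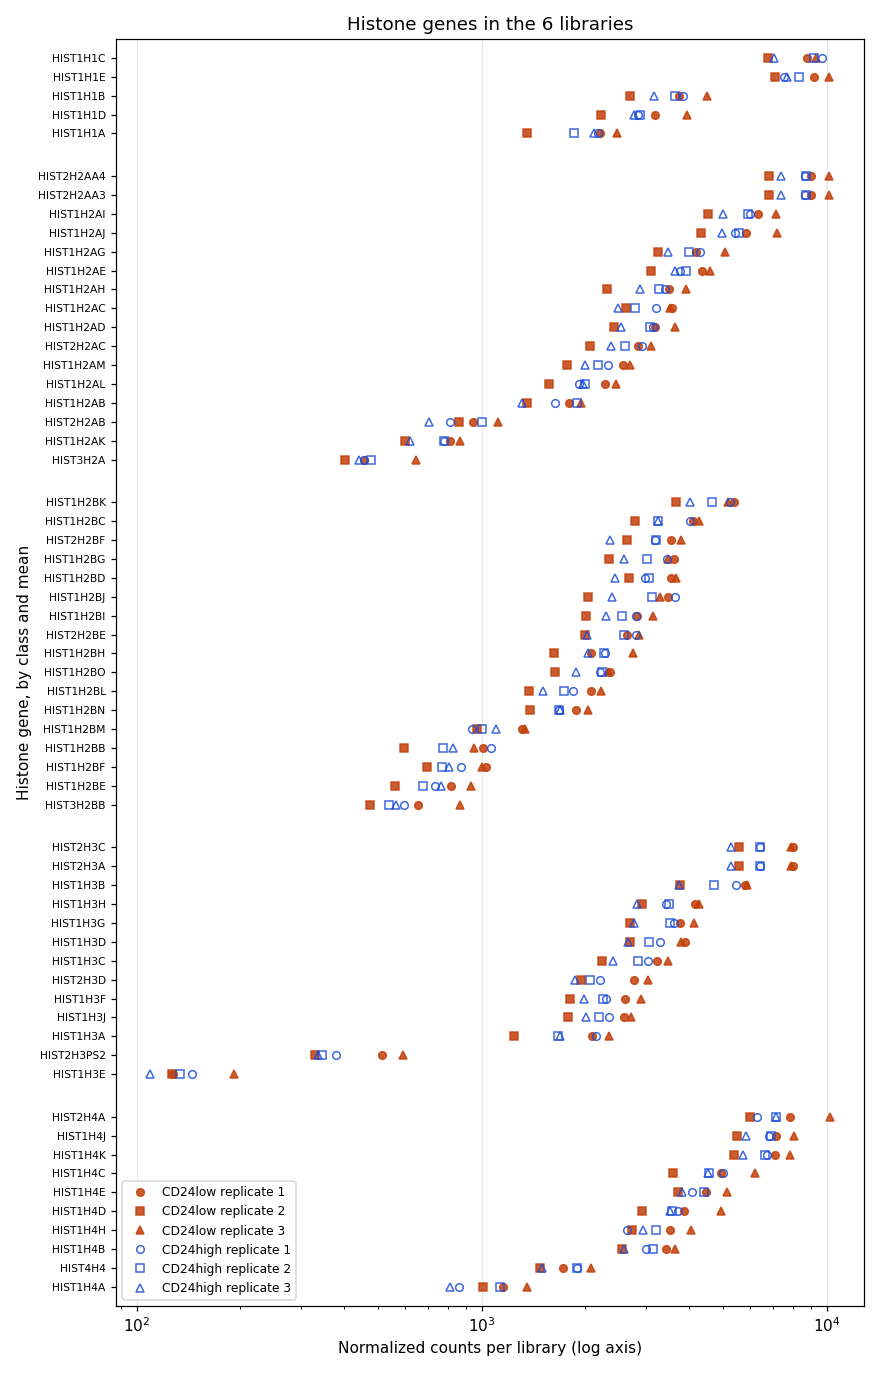
Normalized counts (log axis) of the tested histone genes in each of the 6 libraries, grouped from top to bottom as H1, H2A, H2B, H3 and H4 and ordered by mean within a class. Filled symbols are CD24low and open symbols CD24high; filled squares (CD24low replicate 2) mostly lie lowest and filled triangles (CD24low replicate 3) highest, with the open symbols mostly between them.

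The H1 genes encode the linker histone, which binds the DNA entering and leaving the nucleosome. HIST1H1C and HIST1H1E were the most abundant of the 5 tested, per kilobase of exon. HIST1H1C had 8797, 6775 and 9329 normalized counts in the CD24low libraries, against 9699, 9222 and 7041 in the CD24high libraries. HIST1H1E had 9185, 7102 and 10154 normalized counts in the CD24low libraries, against 7541, 8314 and 7699 in the CD24high libraries. In both genes CD24low replicate 2 was the lowest library, and the fractions overlapped. The log2 difference was −0.06 ± 0.16 (SE) for HIST1H1C and 0.15 ± 0.14 (SE), with a 95% interval of −0.17 to 0.47, for HIST1H1E, the largest of the class. HIST1H1B had 3739.8, 2684 and 4499.9 normalized counts in the CD24low libraries, against 3832, 3632 and 3155 in the CD24high libraries. HIST1H1D had 3191, 2225 and 3929.8 normalized counts in the CD24low libraries, against 2843, 2869.9 and 2770.4 in the CD24high libraries, where the CD24high libraries lay close together inside the CD24low range. In HIST1H1B, too, CD24low replicate 3 was highest and CD24low replicate 2 lowest. HIST1H1A had 2209, 1349.7 and 2466 normalized counts in the CD24low libraries, against 2182, 1857 and 2116 in the CD24high libraries. HIST1H1A had the most negative log2 difference of the class, −0.07 ± 0.20 (SE), with a 95% interval of −0.52 to 0.38. The class median was 0.01, and 3 of 5 genes had a difference above 0.

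The H2A genes encode a histone that pairs with H2B in the nucleosome core. The highest level per kilobase of exon belonged to HIST2H2AA3 (chr1:149842188-149842736) and HIST2H2AA4 (chr1:149851061-149851624), a duplicated pair within HIST2. Their reads differed by at most 1 in any library, so reads of one cannot be told from reads of the other. HIST2H2AA3 had 9013, 6812 and 10183 normalized counts in the CD24low libraries, against 8682, 8708 and 7351 in the CD24high libraries. The next genes, HIST1H2AI and HIST1H2AJ, had the same highest and the same lowest library. HIST1H2AI had 6344, 4541 and 7154 normalized counts in the CD24low libraries, against 5980.5, 5908 and 5018 in the CD24high libraries. HIST1H2AJ had 5853, 4311 and 7160.2 normalized counts in the CD24low libraries, against 5432, 5561 and 4959 in the CD24high libraries. In all of these CD24low replicate 3 was highest and CD24low replicate 2 lowest, and the CD24high values lay between. The log2 differences were 0.06 ± 0.16 (SE) for HIST2H2AA3, 0.07 ± 0.17 (SE) for HIST1H2AI and 0.09 ± 0.17 (SE) for HIST1H2AJ. The extremes of the class were HIST2H2AB at 0.22 ± 0.16 (SE) and HIST1H2AH at −0.0040 ± 0.18 (SE). HIST2H2AB had 946, 859 and 1115 normalized counts in the CD24low libraries, against 812, 1003 and 703 in the CD24high libraries, and its exons overlap BOLA1 on the other strand. HIST1H2AH had 3484, 2313 and 3919.99 normalized counts in the CD24low libraries, against 3396, 3257 and 2879.95 in the CD24high libraries. The class median was 0.07, with 14 of 16 genes above 0.

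H2B is the partner of H2A, and its genes often stand head to head with an H2A gene. HIST1H2BK, whose promoter stretch is shown above, was the most abundant H2B gene per kilobase of exon. It had 5377, 3658 and 5169.8 normalized counts in the CD24low libraries, against 5250.2, 4643 and 4012 in the CD24high libraries. HIST1H2AH, on the other side of that stretch, gave the same picture of overlapping fractions. The log2 difference of HIST1H2BK was 0.02 ± 0.16 (SE), with a 95% interval of −0.35 to 0.39. HIST1H2BC had 4105, 2784 and 4269.7 normalized counts in the CD24low libraries, against 4022, 3251 and 3254 in the CD24high libraries. HIST2H2BF had 3532, 2641 and 3793 normalized counts in the CD24low libraries, against 3184, 3205 and 2355 in the CD24high libraries, and its exons overlap FCGR1A on the other strand. HIST1H2BG had 3601, 2346 and 3479 normalized counts in the CD24low libraries, against 3441, 3010.2 and 2589 in the CD24high libraries. CD24low replicate 2 was lowest in 3 of these 4 genes, HIST2H2BF being the exception with CD24high replicate 3 lowest. The largest difference of the class was 0.24 ± 0.14 (SE) in HIST1H2BM, which had 1306, 972 and 1334 normalized counts in the CD24low libraries, against 938, 999.8 and 1102 in the CD24high libraries. The most negative was −0.09 ± 0.21 (SE) in HIST1H2BB, which had 1007, 594 and 953 normalized counts in the CD24low libraries, against 1067, 774 and 826 in the CD24high libraries. Neither separated the fractions, and their adjusted p in limma were 0.501 and 0.891. The class median was 0.05, with 13 of 17 genes above 0.

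H3 forms the centre of the nucleosome together with H4. Its genes had the highest class median, 0.19, and all 13 had a log2 difference above 0, but no gene passed by adjusted p in limma, DESeq2 or edgeR. Among them HIST2H3C (chr1:149839538-149841193) and HIST2H3A (chr1:149852619-149854274) differed by at most 1 read in any library and cannot be told apart. HIST2H3C had 7993, 5557 and 7909 normalized counts in the CD24low libraries, against 6427, 6391 and 5278 in the CD24high libraries. CD24low replicates 1 and 3 lay above all CD24high libraries, and CD24low replicate 2 lay inside their range. The log2 difference was 0.23 ± 0.16 (SE), with a 95% interval of −0.12 to 0.59 and an adjusted p in limma of 0.559. HIST1H3B had 5798, 3749 and 5873 normalized counts in the CD24low libraries, against 5455, 4724 and 3730.3 in the CD24high libraries. HIST1H3H had 4166, 2911 and 4276 normalized counts in the CD24low libraries, against 3424, 3482 and 2829 in the CD24high libraries. HIST2H3PS2 (chr1:143905556-143905966), a gene grouped with HIST2 by symbol that lies far from its other genes, had the largest difference of all members. It had 513, 329.5 and 592 normalized counts in the CD24low libraries, against 378, 346 and 335 in the CD24high libraries. Its log2 difference was 0.40 ± 0.20 (SE), with a 95% interval of −0.06 to 0.85, an adjusted p of 0.424 in limma and 0.351 in DESeq2. Its exons overlap another annotated gene on each strand, so its reads are uncertain. The sequence before its start is nearly the same as that of HIST2H3D. The means of HIST2H3PS2 and HIST2H3D were 415 and 2312 normalized counts, and whether these genes share reads was not tested. With each near-identical pair counted once, the H3 median was 0.16, and without CD24low replicate 3 it was 0.03.

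The H4 genes encode the same protein apart from HIST1H4G. HIST2H4A (chr1:149832659-149839767) and HIST2H4B (chr1:149854045-149861210) had identical reads and count as 1 gene. HIST2H4A overlaps HIST2H3C on the opposite strand. HIST2H4A had 7847, 6003 and 10197 normalized counts in the CD24low libraries, against 6299, 7129.7 and 7144 in the CD24high libraries. HIST1H4J and HIST1H4K, which lie close together on opposite strands, differed by at most 3.39% in any library. HIST1H4J had 7140.4, 5499 and 8037 normalized counts in the CD24low libraries, against 6809, 6879.8 and 5833 in the CD24high libraries. HIST1H4K had 7099, 5394 and 7852 normalized counts in the CD24low libraries, against 6725, 6647 and 5723 in the CD24high libraries. In each of the 3 genes CD24low replicate 3 was highest and CD24low replicate 2 lowest. The log2 differences were 0.19 ± 0.18 (SE) for HIST2H4A, 0.07 ± 0.15 (SE) for HIST1H4J and 0.08 ± 0.15 (SE) for HIST1H4K. HIST1H4C had 4932, 3579 and 6195 normalized counts in the CD24low libraries, against 5019, 4576 and 4529.6 in the CD24high libraries, with a log2 difference of 0.02 ± 0.18 (SE). The largest difference of the class was that of HIST1H4A (chr6:26021679-26021990), which had the smallest limma p of all members. In DESeq2 the unadjusted p was smaller for HIST2H3PS2, at 0.0408, and HIST2H3D, at 0.0498, than for HIST1H4A, at 0.0581. HIST1H4A had 1152, 1011 and 1358 normalized counts in the CD24low libraries, against 857, 1128 and 812 in the CD24high libraries. CD24high replicate 2 reached into the CD24low range. Its log2 difference was 0.34 ± 0.16 (SE), with a 95% interval of −0.02 to 0.69 and a limma p of 0.0598 unadjusted and 0.388 adjusted. HIST4H4, the single member on chromosome 12, had 1719, 1472 and 2069 normalized counts in the CD24low libraries, against 1886, 1887 and 1493 in the CD24high libraries, a log2 difference of −0.01 ± 0.15 (SE). The class median was 0.10, with 9 of 10 genes above 0.

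**Figure D2:**
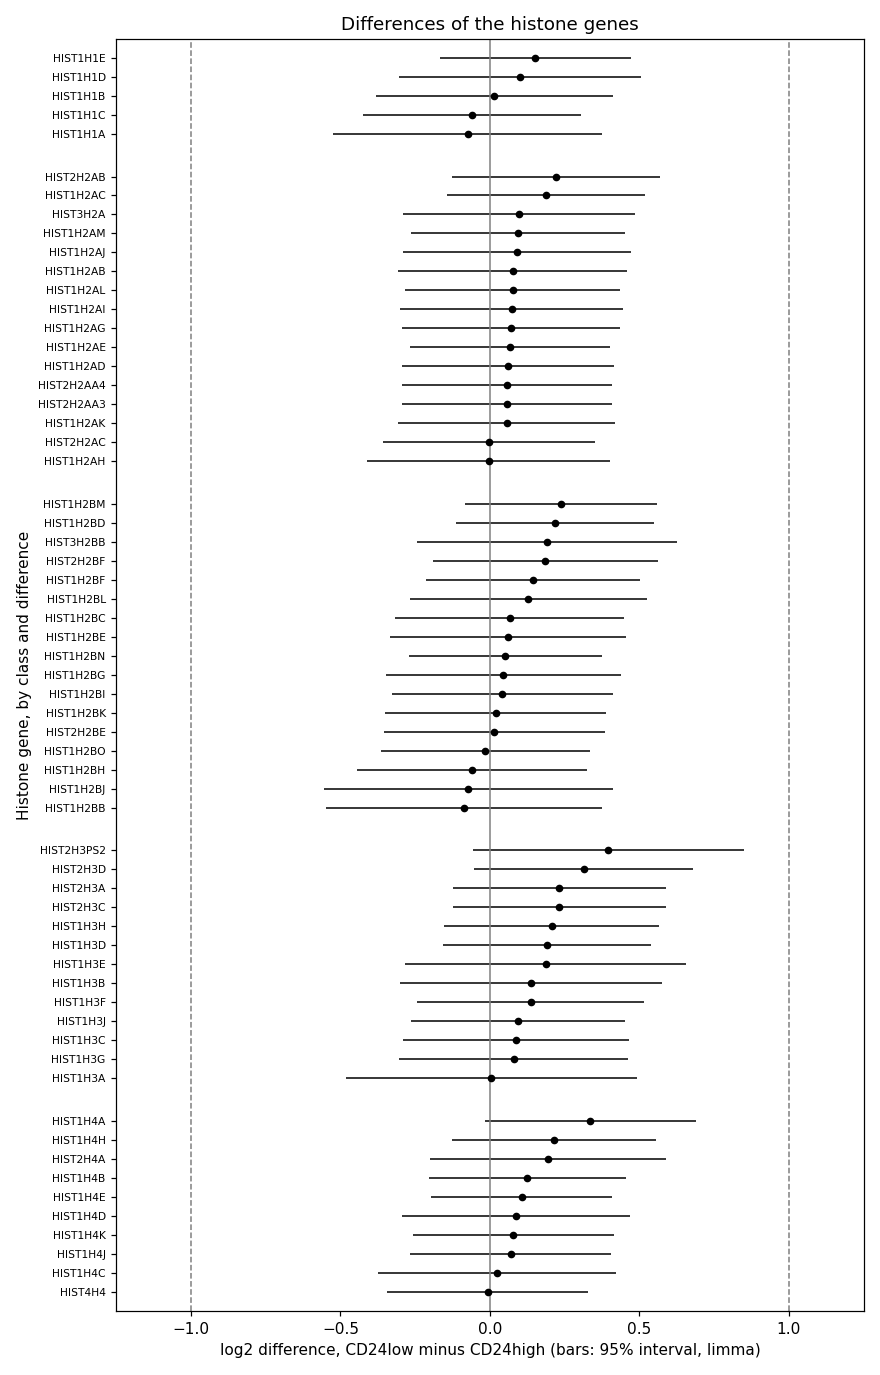
Log2 difference (CD24low minus CD24high, log2 of normalized count + 1) of the 61 counted histone genes with limma's 95% interval as a bar; dashed lines mark 2-fold. Every bar crosses 0 and none reaches a dashed line; HIST2H3PS2 lies farthest right at 0.40 and HIST1H2BB farthest left at −0.09.

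Levels can be compared between genes only per length, here as normalized counts per kilobase of annotated exon. On this scale HIST1H4K was highest, with 21736 in CD24low and 20400.5 in CD24high, followed by HIST1H4J with 18477 in CD24low and 17445 in CD24high. Reads of HIST1H4K and HIST1H4J were close in every library and may be counted at both genes. HIST2H2AA3 had 15792 in CD24low and 15022 in CD24high. HIST1H2AJ had 14922 in CD24low and 13739.9 in CD24high. HIST1H1C led the H1 class with 12929 in CD24low and 13479.9 in CD24high, HIST1H2BK the H2B class with 12428 in CD24low and 12166 in CD24high, and HIST1H3B the H3 class with 12506 in CD24low and 11281 in CD24high. The lowest tested member was HIST1H3E at 51.9 over all libraries. For HIST1H4K and the other 34 genes with no annotated 3′ untranslated region, the length leaves that region out, which raises the value per kilobase. Genes with an annotated 3′ untranslated region over 200 bases are spread over more length, which lowers it.

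By cluster and by gene structure, the medians lay between −0.01 and 0.19. The median log2 difference was 0.08 over 47 genes of HIST1, 0.19 over 11 of HIST2, 0.14 over 2 of HIST3 and −0.01 for HIST4H4. It was 0.11 over the 23 counted genes with a 3′ untranslated region over 200 bases and 0.08 over the other 38. Among the members with a promoter window, it was 0.07 over 19 with the octamer and 0.10 over 33 without it. The octamer lay almost only in H2A and H2B windows. Within those classes the median was 0.07 over 18 genes with it and 0.07 over 9 without it. These values describe overlapping sets of the same genes and were not tested against each other. The exons of 7 of the 71 members overlap another gene on the same strand and those of 10 a gene on the other strand. The strand setting of the read counter is not given in the sources used here, so reads of such pairs are uncertain. HIST1H3J and HIST1H2AM, which overlap on the same strand, differed by at most 1.05% in any library.

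The 9 members below the threshold include the testis-specific genes. HIST3H3, the testis H3 gene, had 0 reads in all 6 libraries, as did HIST1H3I, HIST1H4F, HIST1H4G and HIST1H4L. A count of 0 allows up to 3 reads, which is 2.64 to 2.94 normalized counts in a CD24low library and 2.49 to 4.38 in a CD24high library. The testis H2A gene HIST1H2AA averaged 1.24 normalized counts in CD24low and 0.88 in CD24high, and the testis H2B gene HIST1H2BA averaged 1.27 in CD24low and 1.65 in CD24high. HIST1H1T, the testis linker histone, was nearest the threshold at 2.86 in CD24low and 4.40 in CD24high. HIST1H4I had 3.53, 1.91 and 2.94 in CD24low, against 0.83, 0.00 and 1.46 in CD24high, which is a few reads per library. Inside the threshold of 10, the lowest tested member was HIST1H3E, with a mean of 139 normalized counts. It had 128, 127 and 192 normalized counts in the CD24low libraries, against 144, 133 and 109.6 in the CD24high libraries, and is named here after its values were seen. No member lay between these levels.

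What the members shared was the order of the libraries. Each gene's log2 value was set against its own mean over the 6 libraries, and the median of these deviations was taken over the 61 members. It was 0.15, −0.30 and 0.29 in the CD24low libraries and 0.05, 0.00 and −0.19 in the CD24high libraries, while the median of all genes stayed between −0.01 and 0.01. CD24low replicate 3 gave the highest value of 50 members, against 13.2% of all genes. CD24low replicate 2 gave the lowest value of 46 members, against 26.3% of all genes. The order 3 above 1 above 2 within CD24low held for 51 of 61 members and for 24.7% of all genes. In 43 of 61 members the CD24low libraries reached both above and below all CD24high libraries, which was so in 12.1% of all genes. Other gene lists had the same order within CD24low. The deviations followed it in 6 of the 12 lists, those for histone gene transcription, histone mRNA processing, its decay, DNA replication, mitosis and epithelial markers, where CD24low replicate 2 stood at −0.14, −0.10, −0.17, −0.26, −0.10 and −0.50. The members share their libraries, so these counts are descriptions of 6 libraries and not 61 repeats.

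**Figure D3:**
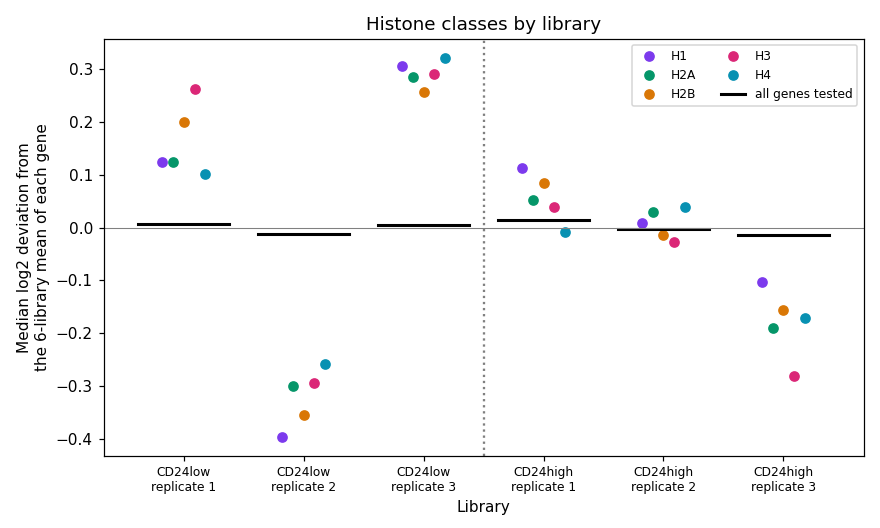
Median log2 deviation from each gene's 6-library mean, by histone class (coloured points) and library, with the median of all 16047 genes tested as a black bar. All 5 classes lie low in CD24low replicate 2 and high in CD24low replicates 1 and 3, and in CD24high they lie lowest in replicate 3.

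All 5 classes followed that order within CD24low. In CD24low replicate 2 the class medians lay at −0.40 for H1, −0.30 for H2A, −0.36 for H2B, −0.29 for H3 and −0.26 for H4. In CD24low replicate 3 they lay between 0.26 and 0.32. Within CD24high the lowest library was replicate 3, with class medians of −0.28 for H3 to −0.10 for H1. The summed counts gave the same order. H1 summed to 27122, 20135 and 30378 in CD24low and 26097, 25895 and 22781 in CD24high, and H4 to 45166, 34842 and 53470.3 in CD24low and 40991, 42552 and 38394 in CD24high. The ratio of the mean sums, CD24low to CD24high, was 1.04 for H1, 1.06 for H2A, 1.05 for H2B, 1.14 for H3 and 1.09 for H4.

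Within CD24low the members varied more between replicates than most genes of like level, a set from which the members were not removed. The median SD of log2 values over 3 libraries was 0.32 for the members in CD24low, within a range of 0.19 to 0.49. In the same libraries it was 0.13 for 5522 genes with means of 616 to 8333 normalized counts, of which 7.01% had an SD at or above the members' median. In CD24high the members' median SD was 0.14, beside 0.15 for those genes, of which 51.7% were at or above it. The highest library exceeded the lowest by a factor of 1.52 in CD24low and 1.17 in CD24high when members were summed. Such a factor was not particular to the members. In CD24low it was 3.40 for the mesenchymal, 2.64 for the immune and endothelial and 1.53 for the epithelial list. It was 1.33 for the DNA replication list and 1.08 to 1.24 for the other lists. The members' gap within CD24low rested on replicate 2. Without it the median SD over the other 2 CD24low libraries was 0.097 for the members and 0.079 for the genes of like level, of which 40.7% were at or above the members' median, and the factor between the sums was 1.10. Without CD24low replicate 1 or 3 the members' median SD was 0.42 or 0.33. The limma intervals had a median half-width of 0.37 for the members and 0.28 for the genes of like level.

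**Figure D4:**
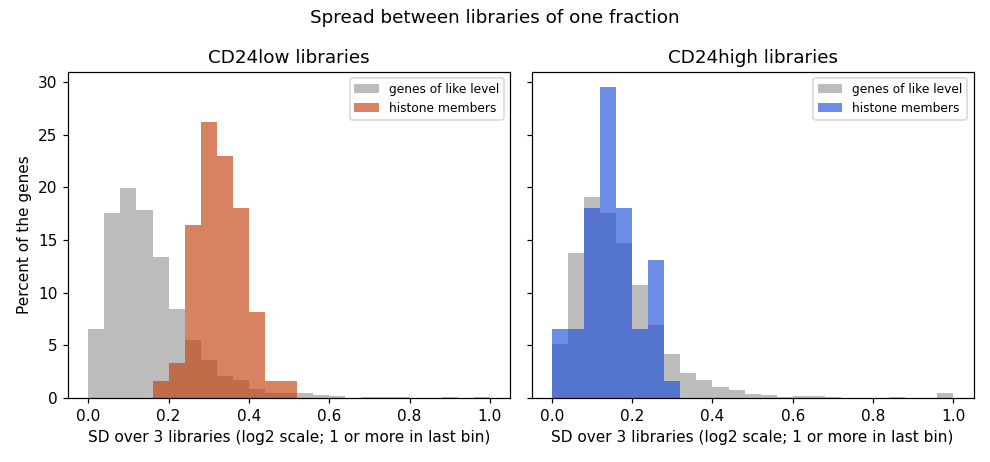
SD of log2 (normalized count + 1) over the 3 libraries of CD24low (left) and CD24high (right), as percent of the 61 histone genes (coloured) and of 5522 genes of like level (grey). The histone genes centre on 0.32 in CD24low, to the right of the genes of like level at 0.13, and on 0.14 in CD24high, where the genes of like level centre on 0.15.

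The rRNA share also differed between these libraries. Among the libraries of high rRNA share, CD24low replicates 1 and 2 against CD24high replicate 3, the members' median log2 difference was 0.10. Among those of low share, CD24low replicate 3 against CD24high replicates 1 and 2, it was 0.27. CD24low replicates 1 and 2, with rRNA shares of 7.15% and 7.07%, stood at 0.15 and −0.30. The part of the rRNA share in the order of the libraries was not tested. With the split as a term in limma, 0 members had an adjusted p under 0.05 and 6 an unadjusted one, all with higher CD24low values (5.31% of all genes in that direction).

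Histone genes outside the 4 clusters are mostly expressed throughout the cell cycle and have polyadenylated mRNAs. limma's adjusted p passed for 0 of 12. At an unadjusted p under 0.05 there were 2 with higher CD24low values, against 6.34% of all genes, and 0 with lower ones, against 7.15%. H1FX, a linker histone, had 1155, 1238 and 1000.1 normalized counts in the CD24low libraries, against 859.7, 816 and 978 in the CD24high libraries, without overlap. Its log2 difference was 0.35 ± 0.13 (SE) with an adjusted p of 0.274. H2AFX, the H2A variant phosphorylated at DNA breaks, had 3147, 2454 and 3165 normalized counts in the CD24low libraries, against 2243, 2186 and 2658 in the CD24high libraries, a log2 difference of 0.30 ± 0.13 (SE). The replacement genes H3F3A and H3F3B had differences of 0.03 ± 0.11 (SE) and 0.07 ± 0.13 (SE), H2AFZ of −0.01 ± 0.15 (SE), and H1F0 of 0.10 ± 0.17 (SE). The median of the list was 0.08. Its library deviations were 0.02, 0.04 and 0.13 in CD24low and −0.05, −0.01 and −0.02 in CD24high, so CD24low replicate 2 was not the lowest library here.

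Among 8 genes for the transcription of clustered histone genes, 2 had an unadjusted p under 0.05 in limma, both with lower CD24low values. Over all genes the share in that direction was 7.15%. The median log2 difference of the list was −0.13. NPAT had 514, 505 and 536 normalized counts in the CD24low libraries, against 719, 632 and 605 in the CD24high libraries, without overlap. Its log2 difference was −0.33 ± 0.12 (SE), with an adjusted p of 0.286 in limma and 0.228 in DESeq2. POU2F1 (OCT1), which binds the octamer shown in the HIST1H2BK stretch, had 686, 731 and 799 normalized counts in the CD24low libraries, against 948, 1019 and 1062 in the CD24high libraries. Its log2 difference was −0.45 ± 0.11 (SE), and its adjusted p was 0.159 in limma and 0.0412 in DESeq2, so that only the second passed. Within the H2A and H2B classes the median difference was 0.07 for genes with the octamer and 0.07 for genes without it, as given above. A relation of POU2F1 to these values was not tested. CASP8AP2 (FLASH), a component of histone locus bodies, had a difference of −0.06 ± 0.11 (SE).

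Processing of the mRNA end gave 1 of 11 genes at an unadjusted p under 0.05 (13.5% of all genes in limma) and a median of 0.01. SLBP, the stem-loop binding protein, had 1643, 1153 and 1635 normalized counts in the CD24low libraries, against 1845, 1455 and 1454 in the CD24high libraries, a log2 difference of −0.11 ± 0.16 (SE). SLBP was lowest in CD24low replicate 2, as most members were. LSM10 had 397, 349 and 399.6 normalized counts in the CD24low libraries, against 254, 288 and 336 in the CD24high libraries, a difference of 0.39 ± 0.15 (SE) with an adjusted p of 0.299. LSM11, its partner in the U7 particle, had a difference of −0.25 ± 0.16 (SE), and SRRT, which links the cap to 3′ processing, of 0.19 ± 0.12 (SE). The U7 RNA gene RNU7-1 had 18.5, 9.55 and 19.6 normalized counts in the CD24low libraries, against 28.2, 19.8 and 5.84 in the CD24high libraries, too few reads to place it. For the decay of histone mRNA, 0 of 4 genes in the table had an unadjusted p under 0.05. ERI1, a nuclease that trims the end of histone mRNA, had a difference of −0.29 ± 0.15 (SE), and UPF1 of −0.07 ± 0.12 (SE). The 18 histone chaperones and carriers gave 0 at an unadjusted p under 0.05 and a median of −0.01. IPO4, an importer of H3 and H4, had a difference of 0.29 ± 0.13 (SE), and HIRA, the chaperone of replacement H3, of 0.20 ± 0.13 (SE).

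DNA replication genes are expressed in the same phase of the cell cycle. Of 40, limma gave 0 by adjusted p and 1 by unadjusted p (13.5% of all genes), and the median was −0.02. That gene was TYMS, thymidylate synthase, which had 2086, 1773 and 1628 normalized counts in the CD24low libraries, against 1152, 1126 and 1486 in the CD24high libraries. Its log2 difference was 0.55 ± 0.14 (SE), with an adjusted p of 0.167 in limma and 0.0363 in DESeq2. PCNA, the replication clamp, had 4619.5, 3488 and 5452 normalized counts in the CD24low libraries, against 5855, 4801 and 4664 in the CD24high libraries, a difference of −0.19 ± 0.17 (SE). RFC3, of the clamp loader, had a difference of −0.31 ± 0.17 (SE). The library deviations of the list were 0.10, −0.26 and 0.14 in CD24low and 0.09, −0.07 and 0.03 in CD24high. They had the order of the histone members within CD24low and another order within CD24high.

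Mitotic genes gave 0 of 20 by adjusted p, 1 by unadjusted p (13.5% of all genes in limma) and a median of 0.01. CENPE, a kinetochore motor, had a log2 difference of −0.33 ± 0.14 (SE) (adjusted p 0.344 in limma), CDK1 of −0.34 ± 0.16 (SE) and MKI67, a proliferation marker, of 0.01 ± 0.16 (SE). Their library deviations were 0.03, −0.10 and 0.12 in CD24low and 0.07, −0.07 and −0.05 in CD24high. Of the 5 CDK inhibitors tested, 2 had an unadjusted p under 0.05 with higher CD24low values (6.34% of all genes in limma). With lower values there was 1 (7.15%). CDKN1A, which halts the cell cycle, had 2845, 2588 and 3273 normalized counts in the CD24low libraries, against 4151, 3510.03 and 4522 in the CD24high libraries. Its difference was −0.48 ± 0.13 (SE), with an adjusted p of 0.181 in limma and 0.0398 in DESeq2. CDKN1C had 59.9, 245 and 25.5 normalized counts in the CD24low libraries, against 13.3, 23.7 and 11.7 in the CD24high libraries, highest in CD24low replicate 2, with a difference of 2.16 ± 0.67 (SE) and an adjusted p of 0.224 in limma. Without CD24low replicate 2 the difference was 1.28 (adjusted p 0.476 in limma), and without CD24low replicate 3 it was 2.89 (adjusted p 0.0329), which passed. Of all 16047 genes, 366 passed in limma without CD24low replicate 3.

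**Figure D5:**
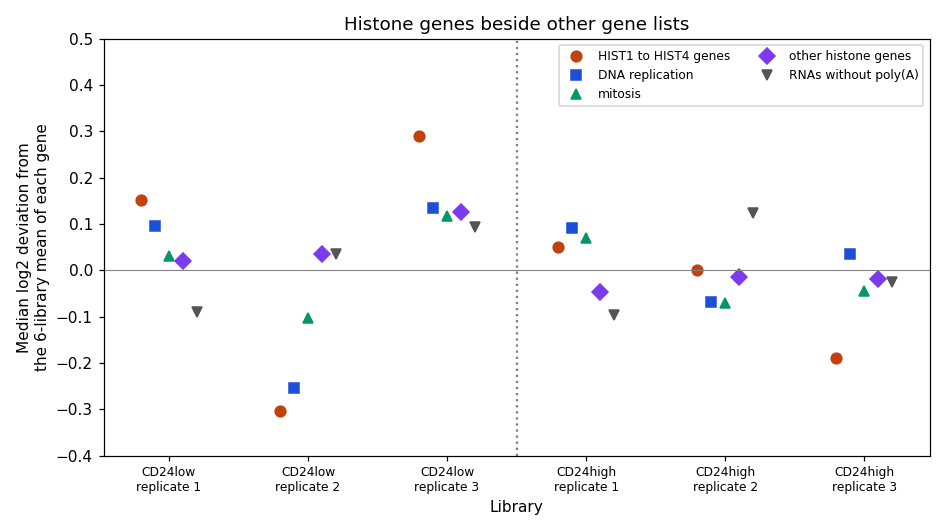
Median log2 deviation from each gene's 6-library mean, by library, for the 61 HIST1 to HIST4 genes and for the lists of DNA replication, mitosis, other histone genes and RNAs without poly(A). The histone points span −0.30 to 0.29, the widest of the 5 sets; DNA replication is lowest in the same library, CD24low replicate 2, at −0.26.

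By DESeq2's adjusted p, which passed 2.51% of all genes, 0 passed among the other histone genes and the lists for processing, decay, chaperones and mitosis. It passed POU2F1 of the transcription list, TYMS of the replication list and CDKN1A of the CDK inhibitors.

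A list of other RNAs without a poly(A) tail was followed across the same libraries. None of 12 passed by limma's adjusted p, 1 had an unadjusted p under 0.05 (13.5% of all genes), and the median was 0.06. RN7SK, which restrains the elongation factor P-TEFb, had a log2 difference of 0.08 ± 0.21 (SE), RMRP of −0.03 ± 0.19 (SE) and RPPH1, the RNase P RNA, of 0.23 ± 0.19 (SE). The gene with the smallest p was RNU12 of the minor spliceosome, at −0.45 ± 0.18 (SE). The list's library deviations were −0.09, 0.04 and 0.09 in CD24low and −0.10, 0.12 and −0.03 in CD24high. CD24low replicate 2 was thus not the lowest library for these 12 RNAs. They do not stand for all RNA without a poly(A) tail, and its recovery in each library was not tested.

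Markers of cell state were measured in the same libraries. The 9 mesenchymal genes summed to 33631, 60608 and 17806 normalized counts in CD24low and 9251, 9013 and 5029 in CD24high. The 7 epithelial genes summed to 72053, 65146 and 99674 in CD24low and 93274, 101261 and 114592 in CD24high. The mesenchymal sums of the fractions did not overlap, and the epithelial sums did. limma passed none of either list by adjusted p. At an unadjusted p under 0.05, 7 mesenchymal genes were higher in CD24low (6.34% of all genes) and 4 epithelial genes lower (7.15%). DESeq2 passed 5 mesenchymal and 2 epithelial genes by adjusted p, against 2.51% of all genes. Without CD24low replicate 3, TP63, CDH1, ZEB2 and POSTN passed in limma, with adjusted p of 0.0273, 0.0142, 0.0100 and 0.0308. They were followed one by one as the 2 genes with the smallest p of each list. In that setting 366 of all 16047 genes passed, against 0 with all libraries. Within CD24low the mesenchymal sum was highest in replicate 2 and lowest in replicate 3, the reverse of the histone order, and its part in the histone values was not tested. Of 7 immune and endothelial genes 5 were below the threshold for testing, CD3E had 0 reads in every library, and PTPRC, VWF, LYZ and CDH5 were at or under 4.38 normalized counts. The 2 tested were CD68, a lysosomal protein of macrophages and other cells, and PECAM1, an endothelial adhesion protein. CD68 had 68.8, 117 and 50.0 normalized counts in the CD24low libraries, against 61.4, 42.5 and 49.7 in the CD24high libraries, a log2 difference of 0.54 ± 0.31 (SE). PECAM1 had 105, 340.04 and 254 normalized counts in the CD24low libraries, against 85.5, 393 and 142 in the CD24high libraries, a log2 difference of 0.31 ± 0.54 (SE). Neither had an unadjusted p under 0.05 in limma. The 7 genes summed to 175, 460.4 and 311 in CD24low and 148.5, 444 and 200.2 in CD24high, highest in CD24low replicate 2, and the part of these genes in the histone values was not tested.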

How the data were processed

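RNA was measured in 3 CD24low and 3 CD24high libraries of MCF10AT1 cells. The sample labels gave the groups and replicate numbers. Each deposited value is a signal per gene that is never negative, which the authors made from gene counts by dividing by size factors; it is called a normalized count here. STAR 2.5.2, R 3.5.0, DESeq2 and hg38 are named per the submitters' processing notes. Not given in the sources used here are the read counter, its strand setting and the release of the annotation. Values were whole multiples of 1 step in each library, so whole reads were recovered by division. Within 0.1 reads, 100% of values were whole, and 1 read was worth 0.83 to 1.46 normalized counts. Totals ran from 16691162 to 27293177 reads, and precision is lowest at the lowest depth, in CD24high replicate 3. Floors of 3 reads for a count of 0 cover counting error only.

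Of 58381 gene IDs, 58261 matched GENCODE 29 without version. Two-sided limma tests with a trend of variance on mean were run on log2 (normalized count + 1), with no term but group, over 16047 genes with a mean of at least 10. P-values were adjusted by Benjamini-Hochberg, with calls at 0.05. Changes of low genes are understated by the pseudocount. DESeq2 and edgeR's quasi-likelihood test were run on the recovered reads. The tools were DESeq2 1.42.0, edgeR 4.0.16 and limma 3.58.1 in R 4.3.3, and matplotlib 3.10.9, numpy 2.4.6 and pandas 2.3.3 in Python 3.11.15. Medians, sums and deviations over members are descriptions with no test.

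The members and the gene lists were chosen with earlier results of these data known. Members named are, per class, the 4 with the highest mean and those with the largest positive and negative difference (28 in all), plus fixed genes and the 2 smallest p per list. In simulated counts for this comparison, with 200 of 16047 genes changed 2-fold, limma recovered 65%, edgeR 65% and DESeq2 75%, with 8, 12 and 31 false calls. The alternatives were other pseudocounts, filters, tools and scalings, a replicate block, the rRNA share, each library left out and, chosen after seeing the data, near-identical genes counted once. No protein sequences were used here.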

Additional observations from a re-analysis of the deposited data

How the results depend on the processing

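No member had an adjusted p under 0.05 in any of the 19 alternatives that gave a test; the subsets of libraries by rRNA share gave none. Members with an unadjusted p under 0.05 numbered 0 in the design used, 1 without a filter on low values (10.3% of all genes), 2 in DESeq2 and 6 with the rRNA share as a term (11.1%). They numbered 0 to 21 with 1 library left out, 21 without CD24low replicate 2 (8.64% of all genes) and 1 without CD24high replicate 2 (10.9%). With the replicate block there was 1 in limma (16.9%) and 1 in edgeR (17.4%), with 0 by adjusted p; over all genes the block gave 716 calls in limma and 705 in edgeR, against 0 without it. Deviations of libraries with the same number correlated at 0.27, 0.30 and 0.05 across genes, and those with different numbers at −0.26 to 0.08. CD24low replicates 1 and 2 correlated best with the CD24high library of the same number, and CD24low replicate 3 with CD24high replicate 1. The labels do not say whether equal numbers mark pairs, so both fits are given. Calls over all genes numbered 402 in DESeq2, 164 without a filter and 366 without CD24low replicate 3. Among libraries of low rRNA share, CD24low replicate 3 stood against CD24high replicates 1 and 2. Class medians there were 0.29 for H1, 0.25 for H2A, 0.25 for H2B, 0.30 for H3 and 0.33 for H4. The cause was not tested. With 1 library left out the member median ran from −0.05 to 0.27, beside 0.08 with all libraries and an SD between replicates of 0.24, and the ratio of sums from 0.99 to 1.20. Of 560 values of the 28 named members under the alternatives, 55 changed sign and none was called. Scaling by total reads moved the median of all genes by under 0.1 on the log2 scale, to −0.04. Tested members had means of 139 to 8477 normalized counts, so depth limits mainly the 9 members below the threshold.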

Other observations

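The spread of histone genes within CD24low had an accompanying order of other values. CD24low replicate 2, lowest for 46 of 61 histone genes, had the highest summed mesenchymal markers, 60608 normalized counts against 33631 and 17806 in CD24low replicates 1 and 3. It also had the highest CDKN1C, at 245 against 59.9 in replicate 1 and 25.5 in replicate 3. Its DNA replication median stood at −0.26, against 0.10 and 0.14 in those libraries. Among the CDK inhibitors CDKN1A went the other way and was lowest of CD24low in replicate 2. That list summed to 3610, 3635 and 4115 normalized counts in CD24low replicates 1, 2 and 3. These are values of 3 libraries, and no relation among them was tested.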
